A study of Mus musculus with 6 samples.

Results

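The 10 genes described here set the pace of the G1 phase of the cell cycle: the 3 D cyclins (Ccnd1, Ccnd2, Ccnd3), their kinases Cdk4 and Cdk6, the inhibitors Cdkn2a, Cdkn2b, Cdkn2c and Cdkn1b, and Rb1, the gene of the retinoblastoma protein. They were chosen by gene symbol, through Ensembl identifiers and GENCODE M21 names, and all 10 were found among the 49315 genes of the count files. All 10 also passed the filter on low counts, which left 16068 genes. The cells were fibroblast lines grown from mouse embryos of the C57BL/6 strain, at passage 4 and untreated, and every line lacked p53 on both alleles. In the SG lines both alleles of MDMX (gene Mdm4) carried the knock-in substitutions W201S and W202G, which disrupt its binding to the kinase CK1-alpha. The WT lines carried normal MDMX in the same p53-null background. There were 3 lines per genotype, SG1, SG2 and SG3 against WT3, WT9 and WT11, each started from a single embryo, so p-values measure the spread between embryos. The absence of p53 is shared by all 6 lines, and no line with p53 was compared. Counts per gene do not show the substitutions themselves, so the genotypes rest on the labels.

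D cyclins rise when cells receive growth signals and switch on CDK4 and CDK6, which phosphorylate the retinoblastoma protein RB and so release E2F transcription factors that turn on genes of DNA synthesis. The INK4 proteins bind CDK4 and CDK6 and keep them from their cyclins, whereas the CIP/KIP protein p27 (gene Cdkn1b) mainly inhibits the CDK2 complexes that act later in G1. Cultured mouse embryo fibroblasts raise Cdkn2a as they are passaged, and the ARF protein of that gene normally acts by stabilising p53. MDMX is best known as an inhibitor of p53, and CK1-alpha primes beta-catenin, a coactivator that can raise Ccnd1 in some cells, for degradation.

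Between 49317925 and 65457242 reads were assigned to genes per line, and the members held between 688 and 30228 reads in a line, a counting error of 0.575% to 3.81%. SG1 and WT9 expressed Xist, a transcript made from the inactive X chromosome of females (399 and 343 CPM, the count scaled to library size), and the other 4 lines had between 0.565 and 0.7 CPM. All 8 fibroblast markers were present (collagens, Pdgfra, Pdgfrb, Thy1, Vim, Dcn), with a summed level of 14400 to 17300 CPM in SG and 15600 to 15900 CPM in WT lines. Of these 8, 3 were lower in each SG line than in any WT line, namely Thy1 (264 to 309 against 438 to 472 CPM), Vim (4282 to 4360 against 4709 to 4947) and Pdgfrb (126 to 167 against 179 to 205). Summed levels of 3 marker lists of other cell types were apart between genotypes. These were 4 cartilage and bone markers (32.9 to 139 CPM in SG, 7.88 to 32.4 in WT, 1 of 4 genes apart), 4 adipocyte markers (3.85 to 5.93 against 8.36 to 10.6, 1 of 4) and 4 neural and glial markers (53.5 to 63 against 71.2 to 73.9, 2 of 4). Sums of the epithelial (18.9 to 45 CPM in SG, 12.4 to 26 in WT), endothelial (51.2 to 71.6, 39.2 to 53.5), blood cell (25.5 to 58.3, 11.4 to 31.2) and muscle markers (67.9 to 88.3, 56.8 to 111) overlapped. In these lists 2 of 6, 0 of 5, 0 of 6 and 1 of 4 genes were apart, all higher in SG. The lowest markers of their lists were Myod1, Plin1, Cdh1, Pecam1, Bglap and Sox10, at or below 0.24 CPM in every line, and Ptprc, up to 2.6 CPM. Others were higher over the lines, such as Kdr (38.1 to 70.5 CPM), Acta1 (49.15 to 100), Tubb3 (36.1 to 46.6), Krt18 (8.39 to 23.3), Lyz2 (3.8 to 28.3) and Col2a1 (4.14 to 126). The part of these cell types in the differences below was not tested, and in bulk RNA a smaller share of cells of a type cannot be told apart from less RNA per cell.

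Of the 10 G1 control genes, Cdk6 alone passed the threshold, and it was higher in SG lines. Of all tested genes 1.9% passed (edgeR's quasi-likelihood test, Benjamini-Hochberg adjusted p below 0.05), and 0.809% passed upward. The levels of both genotypes did not overlap in 2 of 10 members, Cdk6 and Cdkn2a, both higher in SG. Of all tested genes 21.2% did not overlap in either direction, a share near that of the members. Upward it was 10% of all tested genes, a lower share than that of the members. The other 8 members had log2 fold changes (SG minus WT) between -0.06 and 0.09. Over the 10 members the median log2 fold change was 0.02 and its median size, sign ignored, 0.05, beside 0.00 and 0.09 over all tested genes.

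**Figure D1:**
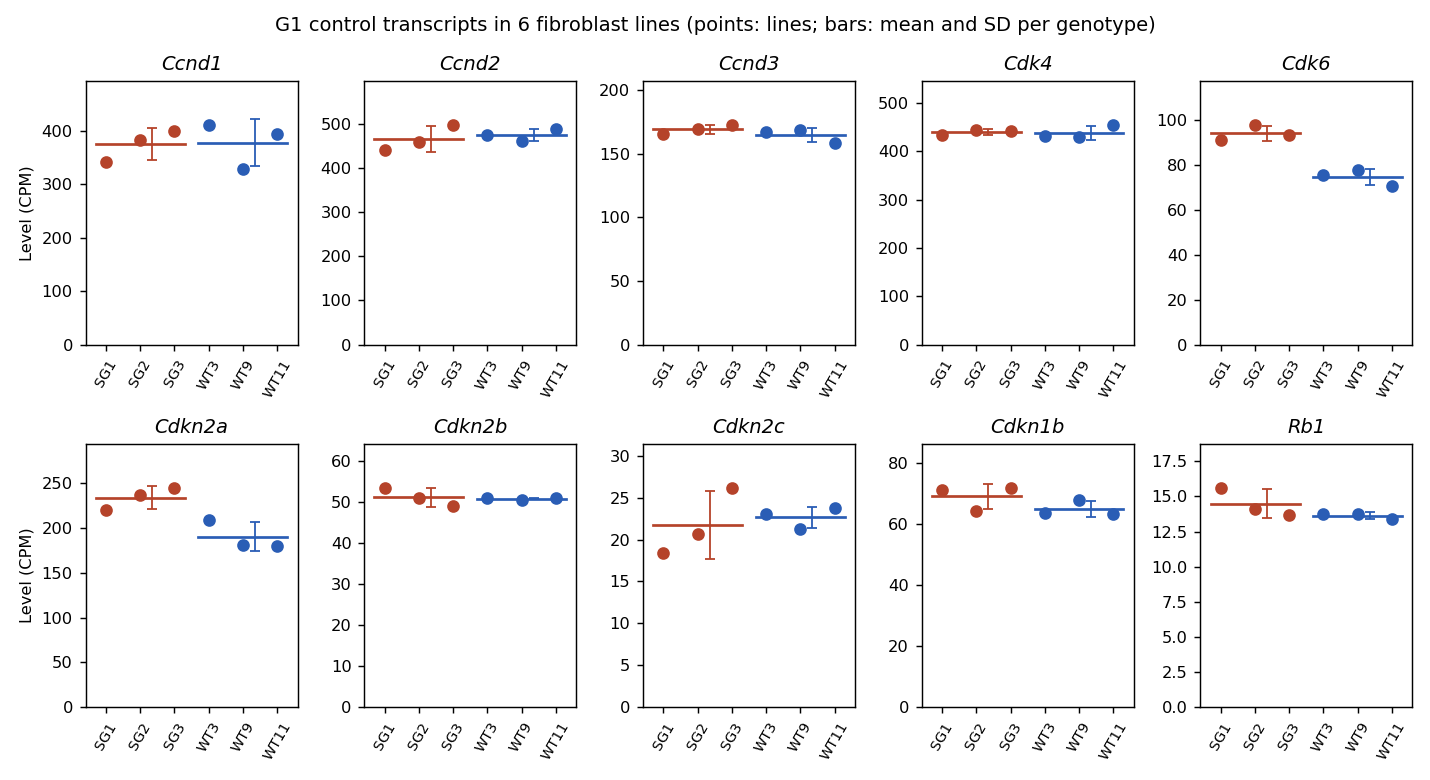
Level in CPM (per TMM-scaled library, axes from 0) of each G1 control gene in each line, with a horizontal bar at the mean and an error bar of 1 SD per genotype (n = 3 lines each). The 3 SG points lie above all WT points for Cdk6 (91 to 97.8 against 70.5 to 77.7 CPM) and Cdkn2a (220 to 245 against 180 to 209 CPM) and overlap with them in the other 8 panels.

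Cdk6 encodes a catalytic partner of the D cyclins that overlaps with CDK4 in its substrates. The gene (ENSMUSG00000040274, chromosome 5, 3341485 to 3531008, plus strand, GRCm38) stood at 91, 97.8 and 93.1 CPM in SG1, SG2 and SG3 and at 75.7, 77.7 and 70.5 CPM in WT3, WT9 and WT11. The lowest SG line thus lay above the highest WT line. The means were 93.95 ± 3.45 CPM in SG and 74.6 ± 3.71 CPM in WT (SD, n = 3 each), a 1.26-fold rise (log2 fold change 0.33, SE 0.05, 95% interval 1.16 to 1.36-fold, edgeR adjusted p = 0.0238). The adjusted p passed in 12 of 15 other settings. It was lost without SG2 (0.107), without WT3 (0.1) or without WT11 (0.0795), with log2 fold changes of 0.30, 0.34 and 0.29 in those fits. Leaving out SG1 and WT9, the lines with Xist, gave 0.38 (adjusted p = 0.0158). Only 2.63% of its exon bases are shared with another gene, the opposite-strand Gm17590, at a mean of 0.0644 CPM. The fibroblast markers Thy1, Vim and Pdgfrb and the summed markers of cartilage and bone, of adipocytes, and of neural cells and glia were divided between the same lines.

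Cdk4, the other D cyclin kinase, held its level within a narrow band over all 6 lines. Its mean was 440.3 ± 5.45 CPM in the SG lines and 438 ± 14.2 CPM in the WT lines, with all lines between 429 and 455 CPM (log2 fold change 0.01, SE 0.04, adjusted p = 0.958). The 95% interval of its difference (SG relative to WT) ran from -5.15% to 6.34%. The range of log2 CPM over the lines was 0.0835, at percentile 4.4 of tested genes. Cdk4 (chromosome 10, 127063534 to 127067920, plus strand) shares 604 of its 3249 exon bases with the opposite-strand Tspan31 (66.8 CPM), so without a stated strand setting a part of its reads is uncertain.

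The promoter window of Cdk6 is shown because it is the member that changed (RefSeq, GRCm38.p6, chr5:3343643-3343942, plus strand, 300 bases around a RefSeq transcription start). It lies inside the gene as annotated in the counts, which begins at 3341485, so the upstream end of that annotation was not searched.
Cdk6: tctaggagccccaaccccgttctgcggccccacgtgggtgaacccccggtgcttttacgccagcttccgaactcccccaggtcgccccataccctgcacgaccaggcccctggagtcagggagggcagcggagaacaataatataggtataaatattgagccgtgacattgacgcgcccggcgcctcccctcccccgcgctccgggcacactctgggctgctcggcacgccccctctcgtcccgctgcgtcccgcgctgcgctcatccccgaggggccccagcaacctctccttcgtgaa
This window, 66.7% G or C, held none of the motifs searched on both strands, namely those of E2F (TTTCCCGC or TTTGGCGC), TCF/LEF (CTTTGAA or CTTTGAT) and AP-1 (TGAGTCA or TGACTCA), none of which contains another. Over all 32851 windows of this length, 1.56%, 8.65% and 5.2% held at least 1 match to them, in that order. Windows were matched for 7 of the 10 members, 10 windows in all, and not for Ccnd1, Ccnd2 and Rb1. The Cdk4 window held a single TCF/LEF match, and no member's window held an AP-1 match.

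The D cyclins, the regulatory subunits that growth signals control, did not pass the threshold in any of the 15 other settings, with adjusted p between 0.431 and 0.995. Ccnd1 (chromosome 7, 144929931 to 144939925, minus strand) stood at 342, 383 and 399 CPM in SG1, SG2 and SG3 and at 411, 329 and 395 CPM in WT3, WT9 and WT11. Its 2 lowest values were those of WT9 and SG1, the lines with Xist, at 329 and 342 CPM, apart from the other 4 at 383 to 411 CPM. It was the only member in which those lines stood apart, a description chosen after its values were seen. The genotype means were 375 ± 29.6 and 378 ± 43.6 CPM (log2 fold change -0.01, SE 0.09, adjusted p = 0.966), and the 95% interval of the difference ran from -14.3% to 14.6%. Its sign turned without SG1, WT3 or WT11, to 0.05, 0.05 and 0.02.

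Ccnd2 (chromosome 6, 127125162 to 127152193, minus strand) ranged from 440 to 498 CPM in SG and from 462 to 488 CPM in WT lines. Its log2 fold change was -0.03 (SE 0.05, adjusted p = 0.843), with a 95% interval from -9.58% to 6.32%. Ccnd3 (chromosome 17, 47505051 to 47599691, plus strand) lay between 159 and 173 CPM in all lines. Its log2 fold change was 0.04 (SE 0.04, adjusted p = 0.711), with an interval from -3.61% to 9.17%. For both genes the genotypes overlapped. Exons of Ccnd1 share 1100 bases with those of LTO1 on the opposite strand (11.8 CPM), and Ccnd3 shares 361 bases with Bysl (77 CPM).

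Cdkn2a makes 2 unrelated proteins, the CDK inhibitor p16INK4a and ARF, which binds the p53 ligase MDM2, from separate first exons joined to a common second exon. In the deposited annotation the upstream first exon, that of ARF, spans 89294334 to 89294653 on chromosome 4 (320 bases, minus strand), and the first exon of p16INK4a 89281986 to 89282192 (207 bases). The common second exon spans 89276645 to 89276985 (341 bases). The most downstream exon spans 89274471 to 89274774 (304 bases), with a shorter form from 89274541 (234 bases). A count per gene sums both transcripts, so the values below do not separate ARF from p16INK4a. The windows of both starts are shown to mark the 2 promoters behind this single count (RefSeq, GRCm38.p6, minus strand). That of ARF is chr4:89294570-89294869 and that of p16INK4a chr4:89282143-89282442, with the E2F motif in capitals.
Cdkn2a, start of ARF: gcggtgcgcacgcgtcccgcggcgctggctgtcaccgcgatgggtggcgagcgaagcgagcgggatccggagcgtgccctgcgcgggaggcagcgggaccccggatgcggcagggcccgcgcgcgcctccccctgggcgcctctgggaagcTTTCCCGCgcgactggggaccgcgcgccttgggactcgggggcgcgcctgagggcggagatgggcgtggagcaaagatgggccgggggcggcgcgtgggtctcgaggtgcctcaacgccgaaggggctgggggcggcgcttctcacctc
Cdkn2a, start of p16INK4a: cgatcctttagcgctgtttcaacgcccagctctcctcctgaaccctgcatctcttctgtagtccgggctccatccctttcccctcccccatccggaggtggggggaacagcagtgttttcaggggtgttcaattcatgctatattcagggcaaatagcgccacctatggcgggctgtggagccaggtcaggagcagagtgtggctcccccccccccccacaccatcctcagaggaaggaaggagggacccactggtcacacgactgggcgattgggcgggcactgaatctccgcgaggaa
The ARF window was 77% G or C and held the single E2F match found among the 10 member windows, which begins at position -99 relative to the start. The p16INK4a window was 60.3% G or C and held none of the motifs. A match describes these letters alone, and its use in these cells was not measured.

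Cdkn2a (ENSMUSG00000044303, chromosome 4, 89274471 to 89294653, minus strand) stood at 220, 237 and 245 CPM in SG1, SG2 and SG3 and at 209, 181 and 180 CPM in WT3, WT9 and WT11. All SG lines lay above all WT lines, with SG1 and WT3 the nearest pair. The means were 233.8 ± 13 and 190 ± 16.4 CPM (log2 fold change 0.30, SE 0.07, 1.23-fold, 95% interval 1.1 to 1.37-fold), and the gene missed the threshold over all genes (edgeR adjusted p = 0.0758). It passed in 4 of 15 other settings, namely with DESeq2 (adjusted p = 0.00138, where 5.97% of all genes passed), without a count filter (0.00523), without SG1 (0.0477) and with the Xist lines as a covariate (0.0484), and its adjusted p reached 0.245 without SG2. None of its exon bases are shared with another gene.

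**Figure D2:**
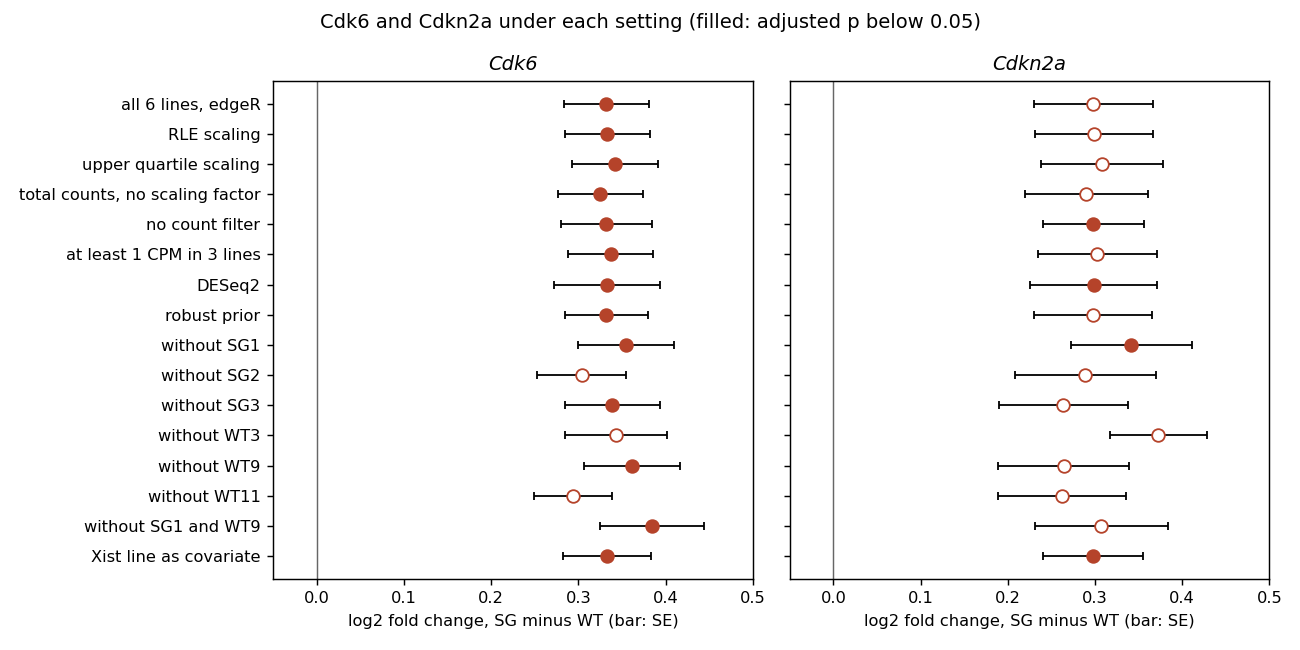
Log2 fold change (SG minus WT, bar of 1 SE) of Cdk6 and Cdkn2a with all 6 lines and under the 15 other settings, filled where the adjusted p was below 0.05. Cdk6 lies between 0.29 and 0.38 and is filled in all settings but those without SG2, WT3 or WT11, and Cdkn2a lies between 0.26 and 0.37 and is filled in 4.

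Cdkn2b, whose p15INK4b protein inhibits CDK4 and CDK6 and is raised by TGF-beta in many cells, lies 11.6 kb from Cdkn2a, between their nearest annotated ends, and overlapped between genotypes. The gene (chromosome 4, 89306289 to 89311032, minus strand) stood at 53.5, 50.9 and 48.98 CPM in SG1, SG2 and SG3, and at 50.9, 50.6 and 50.9 CPM in WT3, WT9 and WT11. The SG line highest in Cdkn2a, SG3, was the lowest in Cdkn2b. Its log2 fold change was 0.01 (SE 0.04, adjusted p = 0.936), with an interval from -5.63% to 7.47%. Mtap, the next gene of this locus, averaged 267 CPM in the SG lines and 275 CPM in the WT lines (log2 fold change -0.04, adjusted p = 0.777). Of 14 genes beside the members' loci, Dmrta1 and Fgf15 did not pass the count filter. LTO1, beside Ccnd1, was missed because its symbol was spelled otherwise in the list, so its difference is not given. The other 11 were tested and 0 passed in edgeR or DESeq2, with an unadjusted p below 0.05 in 2 (18.2%, beside 15.5% of all tested genes). These were Rcbtb2 beside Rb1 (log2 fold change 0.12, SE 0.04, adjusted p = 0.182) and Tigar beside Ccnd2, which encodes a regulator of glycolysis (log2 fold change -0.20, SE 0.07, adjusted p = 0.185).

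Cdkn2c, which encodes p18INK4c, varied most among the members. The gene (chromosome 4, 109660876 to 109667189, minus strand) stood at 18.4, 20.7 and 26.2 CPM in SG1, SG2 and SG3 and at 22.99, 21.3 and 23.7 CPM in WT3, WT9 and WT11. SG lines held both the lowest and the highest value, and the range of log2 CPM was 0.512, wider than in 63.6% of tested genes. The log2 fold change was -0.06 (SE 0.12, adjusted p = 0.865), and the 95% interval, the widest of the 10, ran from -21.1% to 16.7%. The fourth INK4 gene, Cdkn2d (p19INK4d), is no member. It averaged 15.1 CPM in the SG lines and 17.2 CPM in the WT lines (log2 fold change -0.18, SE 0.06, adjusted p = 0.163), without overlap of the lines.

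Cdkn1b, the gene of p27 (chromosome 6, 134920401 to 134925513, plus strand), was between 64.4 and 72.1 CPM in SG and between 63.4 and 67.95 CPM in WT lines. Its log2 fold change was 0.09 (SE 0.05, adjusted p = 0.487), with an interval from -2.33% to 15.9%. Rb1 (chromosome 14, 73183673 to 73325822, minus strand) was the lowest member in CPM, at 15.6, 14.1 and 13.7 CPM in SG1, SG2 and SG3 and at 13.8, 13.8 and 13.4 CPM in WT3, WT9 and WT11. SG1 stood above the other 5 lines, and SG3 lay within the range of the WT lines. The log2 fold change was 0.09 (SE 0.07, adjusted p = 0.616), with an interval from -4.88% to 18.4%. Rb1 shares 896 of its 6015 exon bases with Rcbtb2 (44.9 CPM) and Lpar6 (20 CPM) on the opposite strand.

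**Figure D3:**
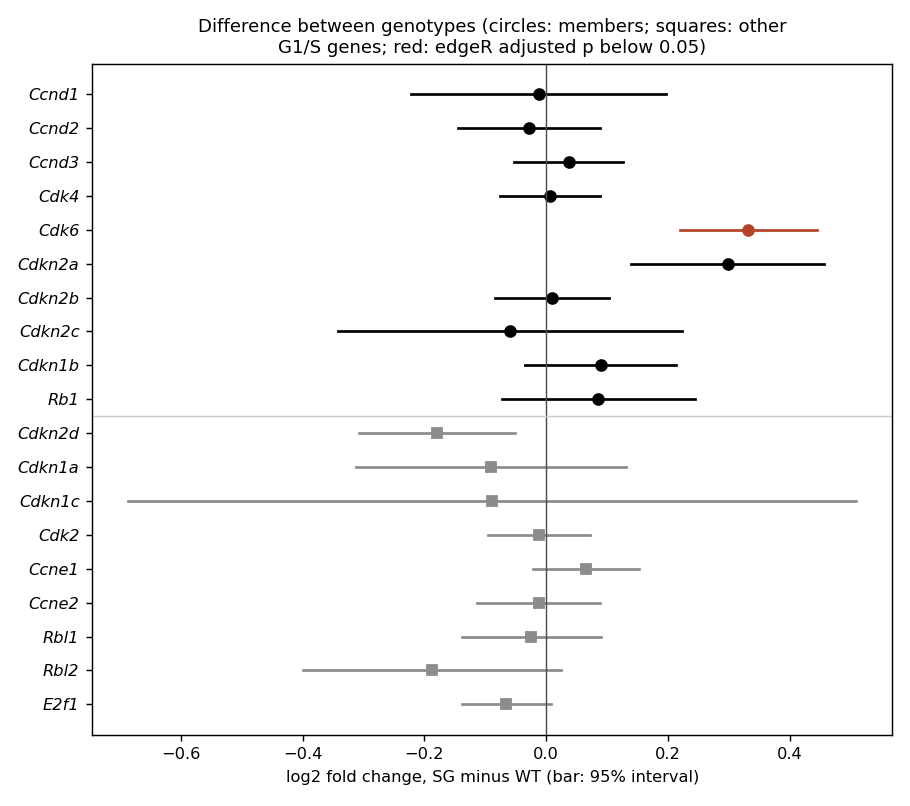
Log2 fold change (SG minus WT, horizontal axis) with its 95% interval for the 10 members (circles) and 9 other G1/S genes (squares), from the fit of all 6 lines, with red for an edgeR adjusted p below 0.05. Cdk6 (0.33) is the only red point, the interval of Cdkn2a (0.14 to 0.46) also lies above 0, and that of Cdkn2d (-0.18) lies below it.

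Levels per length compare the genes with each other, as CPM per kilobase of exon (RPKM). They assume that all annotated exons are used, which weighs on long genes such as Cdk6. The length of Cdkn2a counts both of its alternative first exons. Exon bases shared with opposite-strand genes, most in Ccnd1 (23.4%), Cdk4 (18.6%) and Rb1 (14.9%), add uncertainty without a stated strand setting. In RPKM the order was the same in all 6 lines. Cdkn2a led (200 ± 11.1 in SG, 162 ± 14 in WT), followed by Cdk4 (135.5 ± 1.65 and 134.9 ± 4.4), Ccnd1 (79.6 ± 6.29 and 80.3 ± 9.26), Ccnd2 (49.5 ± 3.14 and 50.5 ± 1.38) and Cdkn2b (36.7 ± 1.62 and 36.4 ± 0.122). Below them came Ccnd3 (19.3 and 18.8), Cdkn1b (15.2 and 14.3), Cdkn2c (8.1 and 8.44), Cdk6 (6.72 and 5.34) and Rb1 (2.41 and 2.27). Neighbours in this order had separate ranges over the lines, except Cdkn2c (6.83 to 9.75) and Cdk6 (5.04 to 6.99), which overlapped although Cdkn2c was higher within each line. Cdkn2a, its ARF and p16INK4a transcripts summed, was thus the most abundant member per length in every line.

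The makeup of each class within a line shows the same differences as proportions, given here without a test since 3 lines against 3 cannot give an exact permutation p below 0.1. Ccnd1 made up 53.6% ± 0.997 of the summed D cyclin RPKM in SG and 53.55% ± 2.71 in WT, Ccnd2 33.4% ± 0.662 and 33.8% ± 1.7, and Ccnd3 13.04% ± 0.58 and 12.6% ± 1.16 (SD, n = 3 lines). WT9 had the lowest share of Ccnd1 (50.5%) and WT3 the highest (55.7%), so the spread among WT lines enclosed all SG lines. Cdk4 made up 95.3% ± 0.118 of the summed RPKM of both kinases in SG and 96.2% ± 0.295 in WT, and the lines did not overlap (95.1% to 95.4% against 95.97% to 96.5%). Among the 4 INK4 genes Cdkn2a took 78.5% ± 1.13 in SG and 74.4% ± 1.54 in WT, also without overlap (77.2% to 79.3% against 73.2% to 76.1%). This share sums the ARF and p16INK4a transcripts, and ARF is no INK4 protein, so it does not give the share of p16INK4a. Cdkn2b took 14.5% ± 1.26 and 16.8% ± 1.02, where SG1 (15.8%) lay above WT3 (15.6%).

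**Figure D4:**
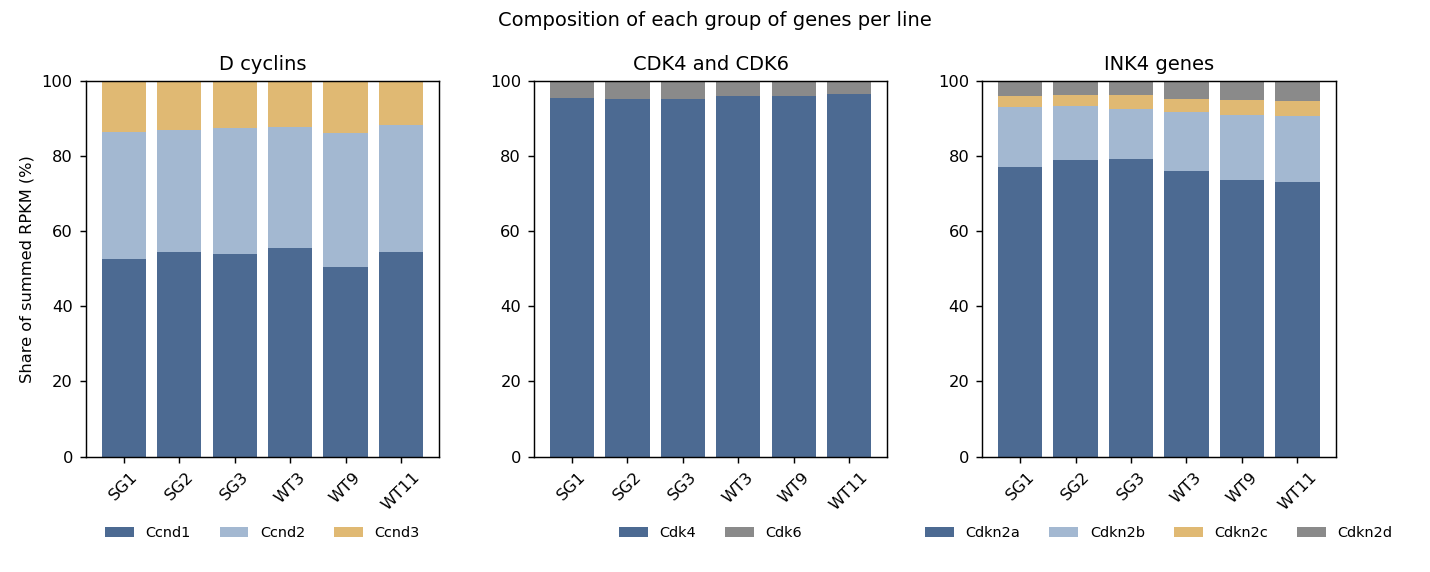
Share (%) of each gene in the summed RPKM of the D cyclins, of Cdk4 and Cdk6, and of the 4 INK4 genes, stacked from 0 to 100 for each line. The D cyclin shares differ more among the WT lines than between genotypes, whereas the Cdk6 and Cdkn2a segments are larger in each SG line than in any WT line. The Cdkn2a segment sums ARF and p16INK4a transcripts.

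The rest of the G1/S machinery was examined as a list of 30 genes, all tested. Of these, 0 passed in edgeR in either direction, 0 passed in DESeq2, and 4 had an unadjusted p below 0.05 (13.3%, beside 15.5% of all tested genes). Their median log2 fold change was -0.03, 10 lay above 0 and 20 below, and without SG3 or without WT11 the median was 0.00. The smallest p belonged to Cdkn2d, given above, and to Tfdp2, a dimer partner of E2F, averaging 34 CPM in the SG lines and 30.95 CPM in the WT lines (log2 fold change 0.13, SE 0.04, adjusted p = 0.169). The cyclin E genes Ccne1 and Ccne2, which drive CDK2, had log2 fold changes of 0.07 and -0.01, and Cdk2 itself -0.01 (adjusted p = 0.469, 0.926 and 0.918). The RB relatives Rbl1 (p107) and Rbl2 (p130) had -0.02 and -0.19 (adjusted p = 0.863 and 0.392), and E2f1 had -0.07 (adjusted p = 0.39).

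Cdkn1a, which encodes p21 and is a main target of p53, averaged 11.1 CPM in the SG lines and 11.8 CPM in the WT lines (log2 fold change -0.09, SE 0.10, adjusted p = 0.713). Cdkn1c, the imprinted gene of p57, had the widest spread of the CDK inhibitors. It stood at 150, 106 and 76.8 CPM in SG1, SG2 and SG3 and at 139, 131 and 84.6 CPM in WT3, WT9 and WT11. Lines of both genotypes covered this range (log2 fold change -0.09, SE 0.26, adjusted p = 0.908).

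Genes known to act on the transcription or turnover of the members formed a list of 26, all tested. In edgeR 0 passed, 5 had an unadjusted p below 0.05 (19.2%, beside 15.5% of all tested genes), and the median log2 fold change was 0.02. DESeq2, which called 5.97% of the 15959 genes with an adjusted p, called 3 of the 26, Tbx3 upward and Ets2 and Foxo1 downward (Foxo1 in edgeR: log2 fold change -0.32, SE 0.08, adjusted p = 0.0881). Tbx3, a T-box repressor known to silence the ARF promoter, stood at 21.3, 26.2 and 28.6 CPM in SG1, SG2 and SG3 and at 17.5, 18.7 and 17.5 CPM in WT3, WT9 and WT11. All SG lines were above all WT lines (log2 fold change 0.50, SE 0.10, edgeR adjusted p = 0.0544). Ets2, an ETS factor known to activate p16INK4a, stood at 56.95, 52.1 and 58.7 CPM in SG and at 72.4, 66.9 and 88.8 CPM in WT3, WT9 and WT11, again without overlap (log2 fold change -0.44, SE 0.10, adjusted p = 0.076). Each passed in 4 of the 15 other settings.

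Among Polycomb genes, whose products silence the Ink4 and Arf locus, Bmi1 was at 65.8, 63.96 and 69.2 CPM in SG lines and 73.4, 75.3 and 70.3 CPM in WT3, WT9 and WT11, without overlap (log2 fold change -0.14, SE 0.04, adjusted p = 0.178). Ezh2 and Suz12 had -0.01 and 0.00. Myc and Ambra1, the latter part of the ubiquitin ligase that degrades D cyclins, had 0.01 and 0.04 (adjusted p = 0.971 and 0.715). Bmi1, Ezh2, Suz12, Myc and Ambra1 were chosen for their known role after their values were seen.

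Genes that RB and E2F control at the onset of DNA synthesis formed a list of 20, all tested. In edgeR 0 passed, and 7 had an unadjusted p below 0.05 (35%), all lower in SG. Over all 16068 tested genes 15.5% had such a p, with 1318 genes lower in SG and 1169 higher. Of the 20, 18 lay below 0, beside 7925 of all 16068 tested genes. Their median log2 fold change was -0.09, beside 0.00 over all tested genes. In WT11 all 20 lay above their own means over the lines, so these genes did not vary independently. The counts and shares of this list therefore describe it and cannot test it against all genes. The list was also chosen with earlier results of these data known. Rrm2, a subunit of ribonucleotide reductase, stood at 243, 245 and 220 CPM in SG1, SG2 and SG3 and at 271, 278 and 305 CPM in WT3, WT9 and WT11. The lines did not overlap (log2 fold change -0.27, SE 0.06, edgeR adjusted p = 0.0679), as in 21.2% of all tested genes. DESeq2 called Rrm2 alone in this list, and 5.97% of all genes with an adjusted p. Mcm6, part of the replicative helicase, had means of 197.5 and 218 CPM (log2 fold change -0.14, SE 0.04, adjusted p = 0.126).

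The mean deviation of the 20 genes from their average over all lines, in log2 CPM, was -0.06 (SG1), -0.02 (SG2), -0.05 (SG3), 0.02 (WT3), 0.00 (WT9) and 0.11 (WT11). WT11 stood apart from the other WT lines, and without it the median log2 fold change was -0.05 with 16 of 20 genes below 0. WT11 was also the lowest line in Cdk6, Cdkn2a, Cdkn1b, Ccnd3 and Rb1. It was the highest line in Cdk4, and in Ccnd1, Ccnd2, Cdkn2b and Cdkn2c it lay between other lines.

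**Figure D5:**
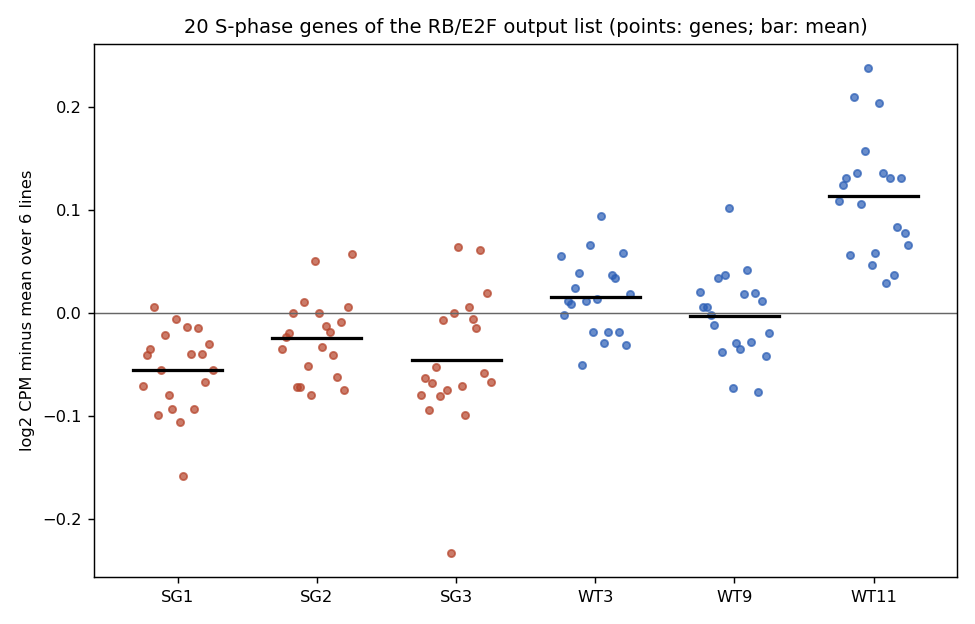
Log2 CPM of 20 S-phase genes of the RB and E2F output list, each minus its mean over the 6 lines, with a point per gene and a black bar at the mean of each line. The bars of the SG lines (-0.06 to -0.02) lie below those of the WT lines (0.00 to 0.11), and WT11 is the highest.

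For the 3 members of widest range, the transcripts most alike over the 6 lines were found by Pearson's correlation of log2 CPM, as a description. The points of a genotype share it. The search covered, over 6 points, those of the 16068 tested genes with a mean log2 CPM of at least 1 and no placeholder symbol. Cdk6 was most like Hmcn1, which encodes the matrix protein hemicentin (r = 0.998, 18.9 to 25.1 CPM in SG and 8.06 to 11.5 in WT). Next came Neo1, the receptor neogenin (r = 0.996, 187 to 199.6 against 123 to 141 CPM), and Ttc13 (r = 0.994, 77.8 to 78.7 against 73.7 to 74.7 CPM). Cdkn2a was most like Slc35d2, Slc14a1 and Myl12b (r = 0.993, 0.991 and 0.989). Cdkn2c was most like Ankfy1, Med30 and Ahr (r = 0.999, 0.997 and 0.994). Ahr, the aryl hydrocarbon receptor gene, ranged from 11.5 to 26.7 CPM in SG and from 16.7 to 19.8 CPM in WT lines. Ankfy1 (99.75 to 109 CPM in SG, 104 to 107 in WT) and Med30 (20.1 to 22.9, 21.4 to 22.1) varied less. Correlation does not measure the size of a change.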

How the data were processed

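Gene-level mRNA counts of 6 fibroblast lines (poly(A) selection) were used. The authors deposited whole-number read counts per gene, with the exon length in bases in a further column, the other measure used here. The submitters' processing notes list Trimmomatic 0.36, STAR 2.5.2b, featureCounts of Subread 1.5.2, DESeq2 and the build GRCm38. Annotation release, strand setting, treatment of multimapping reads and batches are not given in the sources used here.

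Groups and line numbers come from the titles. Counts were filtered with filterByExpr, scaled by TMM and tested across all genes, 2-sided and with no covariate, with the quasi-likelihood test of edgeR 4.0.16 (R 4.3.3) and adjusted by Benjamini-Hochberg over 16068 genes at a threshold of 0.05. Standard errors are log2 fold changes over the root of the F statistic, and 95% intervals use the test's degrees of freedom. Adjusted p values are edgeR's unless DESeq2 1.42.0 is named. Log2 CPM for ranges, likeness and list means used a prior count of 2. Alternatives covered scaling, filter, DESeq2, a robust prior, left-out lines and the Xist lines. Totals of 49317925 to 65457242 counts per line set the counting error, and the spread between lines rests on 3 lines per genotype.

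All 10 members are named, with 9 G1/S genes, and from each other list the genes past the threshold, or else the 2 of smallest p. For the 3 members of widest range, the 3 most correlated genes with a mean log2 CPM of at least 1 and no placeholder symbol are named. Members and lists were chosen with earlier results of these data known.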

Additional observations from a re-analysis of the deposited data

How the results depend on the processing

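Over 15 other settings, the 10 members kept their direction and side of the threshold in 131 of 150 cases, and 3 calls were lost (Cdk6) and 4 gained (Cdkn2a), as given above. The number of members past the threshold was 1, against 2 without a count filter, 2 with DESeq2 and 2 with the Xist lines as a covariate, and 0 to 2 with a line left out. Over all genes 306 passed, against 959 without a count filter, 952 with DESeq2, 703 without SG1 and WT9, and 3 (without SG2) to 579 (without SG1) with a line left out, 24 without WT3, 29 without WT11 and 460 without WT9. Regulators past the threshold numbered 0, against 3 without a count filter, 3 with DESeq2, 3 without SG1 and WT9, and 0 to 2 with a line left out. Of the S-phase genes 0 passed, against 1 without a count filter and 1 with DESeq2. The 30 other G1/S genes gave 0 in each setting run.

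Signs turned only in genes close to 0 or of wide spread. With a line left out, log2 fold changes ran from -0.10 (without WT9) to 0.053 (without WT3) for Ccnd1, -0.079 (SG3) to 0.011 (SG1) for Ccnd2, -0.0091 (WT9) to 0.035 (WT11) for Cdk4, -0.023 (SG1) to 0.040 (SG3) for Cdkn2b and -0.21 (SG3) to 0.048 (SG1) for Cdkn2c. Among other named genes they ran from -0.37 (SG1) to 0.12 (SG3) for Cdkn1c, -0.036 (SG1) to 0.0082 (SG3) for Cdk2, -0.042 (SG2) to 0.016 (WT11) for Ccne2 and -0.071 (SG3) to 0.0017 (SG1) for Rbl1. Total counts turned Cdk4 to -0.00039. Without SG1 and WT9, Cdkn2b turned to -0.026, Cdkn2c to 0.0038 and Ccne2 to 0.0022. The cause was not tested.

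Shares from CPM in place of RPKM, in SG and WT, were 37.1% and 37.05% for Ccnd1, 46.1% and 46.7% for Ccnd2, 16.8% and 16.3% for Ccnd3, 82.4% and 85.4% for Cdk4, 72.6% and 67.7% for Cdkn2a, 15.9% and 18.1% for Cdkn2b, and 6.73% and 8.09% for Cdkn2c. Dividing by length makes this difference by construction. No paired analysis was run because the labels give no pairing between lines of the genotypes. The number shared by SG3 and WT3 is not said to mark a pair. Another scaling moved the median log2 fold change of all genes to between -0.01 and 0.01.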
